A study of Mus musculus with 2 samples.

Results

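AP-1 is a family of transcription factors, and its 8 genes followed here were Fos, Fosb, Fosl1, Fosl2, Jun, Junb, Jund and Atf3. They were taken by their symbols and not by a threshold on a value, but the family was chosen with earlier results of these data known. They are 8 of the 32285 genes counted in each library. Aged C57BL/6 mice had received the drug Maraviroc (MVC) or the vehicle DMSO. The question was whether MVC dampens the secretions of senescent cells in aging muscle. Mononuclear cells of limb muscle were dissociated with collagenase and dispase, live cells were sorted with a viability dye, and 1 droplet single-cell RNA-seq library was made from each of the 2 groups. The strain and the aging, both from the study's methods, were common to both groups. With 1 library per group, no difference below could be set against the spread between mice, so none was tested, and how many mice a library pooled was not given in the sources used here.

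Fos and Jun proteins dimerize through leucine zippers and bind the palindromic DNA element TGACTCA, and Fos proteins need a Jun partner to do so. Fos, Fosb, Jun, Junb and Atf3 are immediate early or stress-response genes, transcribed within minutes of a growth factor, cytokine, mechanical or heat stimulus, and Jund is known for a steadier basal level. In muscle, the family is known to respond to injury and to the enzymatic isolation of cells itself, so a level measured after dissociation holds both the state in the tissue and the response to isolation, which these data cannot separate.

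Values are unique molecular identifiers (UMIs), each standing for 1 captured transcript. After cells under 500 detected genes or over 10% mitochondrial UMIs were set aside, there remained 5437 DMSO cells (38748234 UMIs, median 5802 per cell) and 5454 MVC cells (35518029 UMIs, median 5195 per cell), and 8 barcodes of kept cells occurred in both libraries. The cells fell into 27 clusters, drawn without the 8 AP-1 genes and named "X-like" from fixed markers, which gave 16 classes. In 12 of these classes both libraries held at least 50 cells. They were endothelial (EC-like), fibro-adipogenic progenitor (FAP-like), tenocyte-like, pericyte-like, satellite cell (MuSC-like), macrophage-like, B cell-like, T/NK-like, Schwann-like, SMC/pericyte-like (smooth muscle cell and pericyte markers together), perineurial-like and lymphatic EC-like. Every marker of its own list was detected in each singly named class of the 12 in both libraries. Markers of one class were also found in others, at low levels in some and at high levels in others. In B cell-like cells the 12 FAP markers together reached 1.33% of their FAP-like level in DMSO and 10.6% in MVC. Per 1000000 UMIs they stood at 34410 in FAP-like and 16340 in tenocyte-like cells of DMSO, and at 30020 and 16220 in MVC. In perineurial-like cells they stood at 20540 in DMSO and 16720 in MVC, above that class's own markers at 2284 and 3687.

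The sequences just before the transcription start were read first, because the start regions of these genes carry the elements through which signals reach them. RefSeq promoters of build GRCm38.p6 were matched to 7 of the 8 members, all but Fosl1, and the 250 bases before the start were searched on both strands. Capitals mark a match to 1 of 5 motifs. They are the AP-1 element TGACTCA, the cAMP-response type element TGACNTCA, its core TGACGT, the variant core TGACGC and the CArG box of serum response factor. The core lies within the longer element when the free base of that element is G, so their counts can overlap. The 5 promoters with a match are shown, each 5′ to 3′ on the strand of the gene.
Fos, chr12:85473640-85473889, plus strand: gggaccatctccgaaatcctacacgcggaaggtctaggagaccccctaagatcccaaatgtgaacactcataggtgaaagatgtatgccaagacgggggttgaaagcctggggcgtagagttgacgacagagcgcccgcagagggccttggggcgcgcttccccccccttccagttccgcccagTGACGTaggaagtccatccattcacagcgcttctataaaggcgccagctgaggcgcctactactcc
Fosb, chr7:19310046-19310295, minus strand: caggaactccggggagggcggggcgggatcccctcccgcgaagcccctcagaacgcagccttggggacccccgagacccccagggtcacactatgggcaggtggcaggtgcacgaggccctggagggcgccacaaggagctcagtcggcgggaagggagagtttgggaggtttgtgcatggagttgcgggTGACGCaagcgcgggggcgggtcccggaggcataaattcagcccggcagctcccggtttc
Jun, chr4:95052223-95052472, minus strand: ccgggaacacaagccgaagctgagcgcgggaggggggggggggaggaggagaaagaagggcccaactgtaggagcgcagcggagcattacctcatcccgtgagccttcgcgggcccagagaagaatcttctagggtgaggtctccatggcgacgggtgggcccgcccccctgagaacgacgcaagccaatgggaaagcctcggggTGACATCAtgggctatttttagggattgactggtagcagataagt
Junb, chr8:84978749-84978998, minus strand: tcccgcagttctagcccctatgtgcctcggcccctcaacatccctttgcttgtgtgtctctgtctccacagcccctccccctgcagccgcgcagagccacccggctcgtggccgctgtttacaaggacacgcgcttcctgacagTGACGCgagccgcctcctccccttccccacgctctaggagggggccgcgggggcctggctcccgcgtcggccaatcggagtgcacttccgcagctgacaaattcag
Atf3, chr1:191183334-191183583, minus strand: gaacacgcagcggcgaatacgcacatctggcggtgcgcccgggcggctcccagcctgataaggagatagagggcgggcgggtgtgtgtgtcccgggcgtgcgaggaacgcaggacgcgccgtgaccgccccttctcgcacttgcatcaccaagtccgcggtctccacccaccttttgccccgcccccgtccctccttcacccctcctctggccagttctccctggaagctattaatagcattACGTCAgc

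TGACGT began 66 bases before the start of Fos and, on the opposite strand, lay 8 to 3 bases before that of Atf3. TGACGC began 60 bases before the start of Fosb and 106 before that of Junb, and the Jun window held 1 match to TGACNTCA that began 45 bases before the start. Among 32851 promoter entries of the same length, 6.47% held TGACGT and 6.12% the variant TGACGC, while 7.49% held the longer TGACNTCA, 4.46% the AP-1 element and 1.47% the CArG box. The windows follow RefSeq starts, and that of Jund lies upstream of the GENCODE gene while those of Fosl2 and Atf3 lie inside it. The windows of Fosl2 and Jund held none of the 5, and no member's window held TGACTCA or the CArG box, which says only that these letters are not within these bases. The motifs were chosen with the promoters in view, and a match is a description of letters, not of binding.

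The 8 genes took nearly the same share of all UMIs in the 2 libraries, 0.809% in DMSO (313617 UMIs) and 0.804% in MVC (285426 UMIs). Levels are given as the UMIs of a gene per 1000000 UMIs of the class and library (CPM), with exact 95% Poisson intervals that, like all intervals here, cover counting error only. Over all kept cells, Junb stood at 1899 CPM in DMSO and 1872 in MVC, Jun at 1803 and 1892, Jund at 1338 and 1190, Fos at 1288 and 1452, Atf3 at 867 and 896, Fosb at 443 and 341, Fosl2 at 316 and 279, and Fosl1 at 139 and 115. The 3 Jun genes therefore held 62.3% of the AP-1 UMIs in DMSO and 61.65% in MVC. None of the 8 differed by 1.5-fold over all cells, and the ratio of MVC to DMSO ran from 0.770 for Fosb to 1.13 for Fos. These pooled values rest on different mixtures of cells, since MuSC-like cells were 2.65% of the DMSO and 4.69% of the MVC cells and T/NK-like cells 3.59% and 1.12%.

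All 8 are protein-coding genes, given here with their GENCODE M21 positions on GRCm38. Fos (ENSMUSG00000021250) lies on chromosome 12 from 85473890 to 85477273, Fosb on chromosome 7 from 19302696 to 19310051, Fosl1 on chromosome 19 from 5447547 to 5455946 and Fosl2 on chromosome 5 from 32135801 to 32157842. Jun (ENSMUSG00000052684) lies on chromosome 4 from 95049034 to 95052222, Junb (ENSMUSG00000052837) on chromosome 8 from 84974484 to 84978718, Jund on chromosome 8 from 70698949 to 70700616 and Atf3 (ENSMUSG00000026628) on chromosome 1 from 191170296 to 191218039. A gene on the other strand overlapped 5 of them, namely Junos at Jun, Prdx2 at Junb, Gm11175 at Jund, Ccdc85b at Fosl1 and Gm24748 at Atf3. Cell Ranger, named in the submitters' processing notes, by default counts reads in the sense direction of a gene, and whether that default was kept was not given in the sources used here.

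For each gene below, highest and lowest are among the 12 classes with at least 50 cells in both libraries. Fos, a partner of Jun proteins, differed more between classes than between the libraries. In DMSO it was highest in Schwann-like cells at 2960 CPM (2823 to 3103), followed by pericyte-like cells at 2072 and FAP-like cells at 1638, and lowest in B cell-like cells at 145. In MVC the ends of the order were the same, with Schwann-like cells at 1838 and B cell-like cells at 155, a range of 11.9-fold against 20.4-fold in DMSO. SMC-like cells, a smaller class outside the 12, stood at 2307 CPM in DMSO and 1925 in MVC, the latter above Schwann-like cells. Spearman's rho of the 12 class levels between the libraries was 0.77, given as a description. Of the 11 pairs of neighbours in the order, 3 had overlapping intervals in DMSO and 4 in MVC.

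Fosb, a close relative of Fos, was highest in pericyte-like cells in both libraries, at 834 CPM in DMSO and 589 in MVC. Its lowest levels lay in the leukocyte classes, at 125 CPM in T/NK-like cells of DMSO and 97.1 in macrophage-like cells of MVC. Between those ends the classes were hard to separate, with 7 of 11 neighbours overlapping in DMSO and 8 in MVC.

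Fosl1 encodes Fra-1, which lacks the activating end of Fos, and it had the widest range between classes of the 8 genes in both libraries. MuSC-like cells held 489 CPM (447 to 534) in DMSO and 417 (388 to 448) in MVC, above every other of the 12 classes. Perineurial-like cells came next in both, at 330 and 218 CPM. The extent of this class depended on the clustering, as described below. T/NK-like cells stood at 7.53 CPM in DMSO, from 13 UMIs, so the 65.0-fold range in DMSO rests on few molecules. Fosl2, which encodes Fra-2, was highest in perineurial-like cells at 788 CPM in DMSO and 626 in MVC, and its order of classes was the most alike between the libraries of the 8 genes (Spearman's rho 0.94 over 12 classes). Its low end was 67.5 CPM in B cell-like cells of DMSO and 108 in macrophage-like cells of MVC.

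Jun, which can also bind DNA as a homodimer, was highest in pericyte-like cells in DMSO at 2759 CPM and in EC-like cells in MVC at 2210. Among the classes compared, Jun was lowest in B cell-like cells of DMSO, at 374 CPM, and in T/NK-like cells of MVC, at 371. The T/NK-like class was not of lymphocytes alone, as described below. Myofibre-like cells, a smaller class outside that comparison, stood lower, at 140 CPM in DMSO and 344 in MVC. Junb, which can oppose Jun at some promoters and activate others, was highest in FAP-like cells in both libraries, at 2643 CPM (2615 to 2671) and 2493 (2467 to 2520). Jund varied least between classes, 2.41-fold in DMSO and 2.01-fold in MVC. In the lymphocyte and macrophage-like classes of DMSO, Junb and Jund stood between 650 and 1021 CPM, and Fos between 145 and 377. Jund made up 32.6% of the AP-1 UMIs of B cell-like cells in DMSO and 29.5% in MVC, against 16.5% and 14.8% over all cells.

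Atf3, a stress-induced partner of Jun that usually represses, was highest in Schwann-like cells in both libraries, at 2105 CPM in DMSO and 1410 in MVC. EC-like cells were second, at 1374 and 1337 CPM. Among the classes compared, Atf3 was lowest in B cell-like cells of DMSO, at 90.8 CPM, and in T/NK-like cells of MVC, at 156. Neutrophil-like cells, a smaller class outside that comparison, stood at 347 CPM in DMSO and 149 in MVC, the latter below T/NK-like cells.

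**Figure D1:**
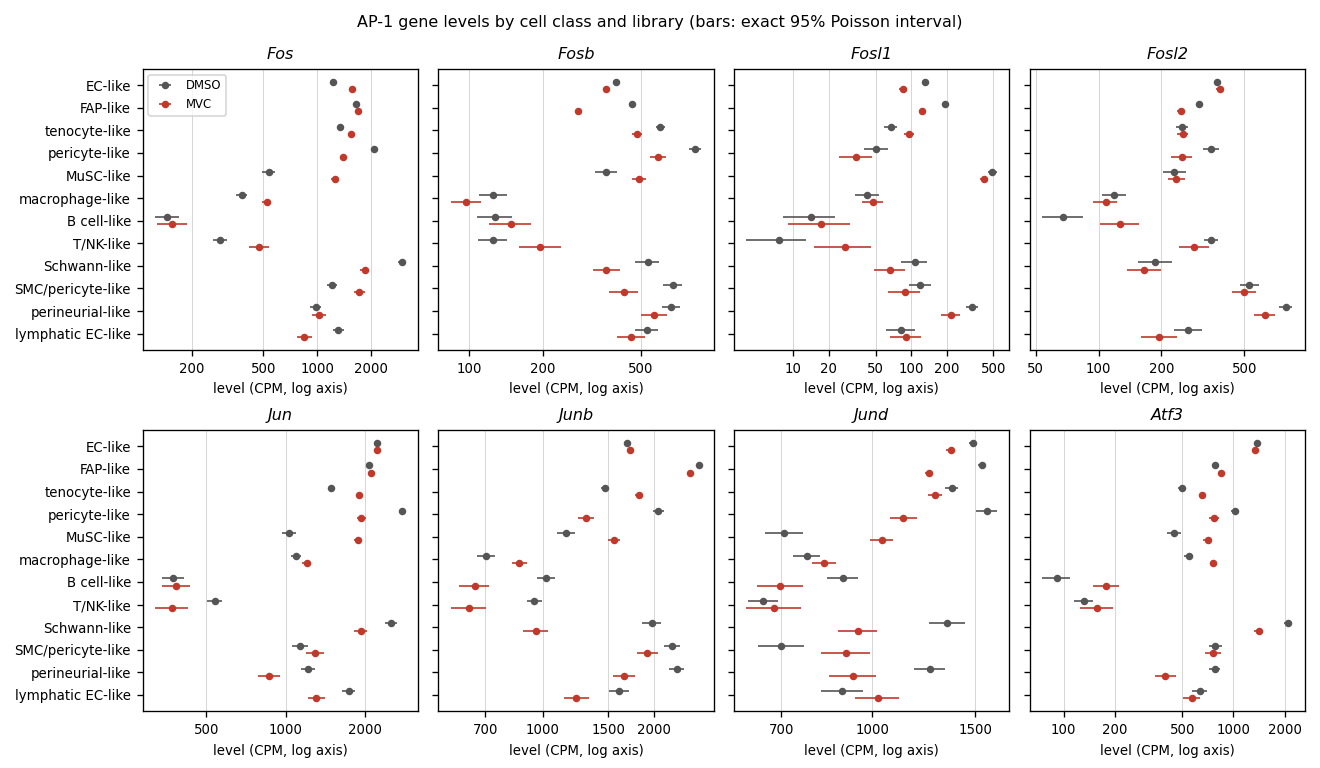
Level of each AP-1 gene (CPM, log axis) in the 12 classes, with DMSO in grey and MVC in red, and bars for the exact 95% Poisson interval. The lymphocyte classes sit at the left for Fos, Jun and Atf3, and MuSC-like cells sit at the right for Fosl1, at 489 and 417 CPM.

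The summed level of the 8 genes separated stromal and vascular classes from leukocytes. It was 11710 CPM in Schwann-like, 10700 in pericyte-like, 9631 in FAP-like and 8894 in EC-like cells of DMSO, and 2731 to 3778 CPM in B cell-like, T/NK-like and macrophage-like cells. MuSC-like cells of DMSO stood between these groups, at 4956 CPM. In MVC they did not, at 7574 CPM, within the range of the stromal and vascular classes, 5716 in lymphatic EC-like to 9024 in FAP-like cells. The leukocyte classes of MVC ran from 2361 CPM in B cell-like to 4427 in macrophage-like cells. In 4 classes outside the main set, SMC-like cells (65 DMSO and 48 MVC cells) summed to 10600 and 7887 CPM, neutrophil-like cells to 2271 and 1536, the FAP/tenocyte-like cluster to 6305 and 5102, and myofibre-like cells to 1554 and 1820. A single cell class was far from uniform inside. The 6 EC-like clusters of DMSO ran from 4013 CPM in cluster 9 to 11220 in cluster 3, and the 4 FAP-like clusters from 5017 in cluster 10 to 12860 in cluster 4. Fos alone stood at 303 CPM in cluster 10 and at 2750 in cluster 4.

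To compare cells at 1 depth, each cell was thinned at random to 2000 UMIs and shallower cells were left out, which kept 4990 DMSO and 4473 MVC cells. Inside the 12 classes the transcripts of Fos were unevenly spread over cells. Its Fano factor, the variance over the mean of the thinned UMIs, which pure counting sets at 1, had a median over the classes of 8.77 in DMSO and 9.28 in MVC, and ran from 1.95 to 21.8 in DMSO. That of Jun had medians of 7.08 and 7.52. The factor rises with a gene's mean, so the genes were not ranked by it. At this depth a cell held a median of 4 of the 8 genes in both libraries, 2.81% of DMSO and 3.09% of MVC cells held none, and the AP-1 UMIs of a cell ran from 2 at the 10th percentile through a median of 11 and 10 to 40 and 39.8 at the 90th. MuSC-like cells had a median of 7 AP-1 UMIs in DMSO and 10 in MVC, Schwann-like cells 18 and 11, and pericyte-like cells 20 and 12.5.

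The comparison of MVC with DMSO asked in which cell types the AP-1 genes differed between the treated and the control library. A gene and class pair was read when it held at least 200 UMIs over both libraries, and called when the level differed by at least 1.5-fold. Of the 96 pairs of 8 genes and 12 classes, 88 could be read, and 7 of the 8 others were Fosl1. The call was met by 18 of the 88, which is 20.45%, with 6 higher and 12 lower in MVC. Over all genes and the same classes, 10.5% of the pairs met it. By gene, Junb was lower in 4 classes and higher in none, Fosl1 lower in 3 of the 5 it could be read in, Fos higher in 2 and lower in 2, Fosb higher in 1 and lower in 2, Atf3 higher in 2 and lower in 1, Jun higher in 1, and Fosl2 and Jund were called in none of 11 and 12 classes. The counting interval left out a ratio of 1 in 69 of the 88 pairs, but it lay wholly past 1.5-fold in 6, and the spread between mice could not be measured. The same counts over all genes were not set beside these 2, and the interval narrows as the UMIs of a gene rise.

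**Figure D2:**
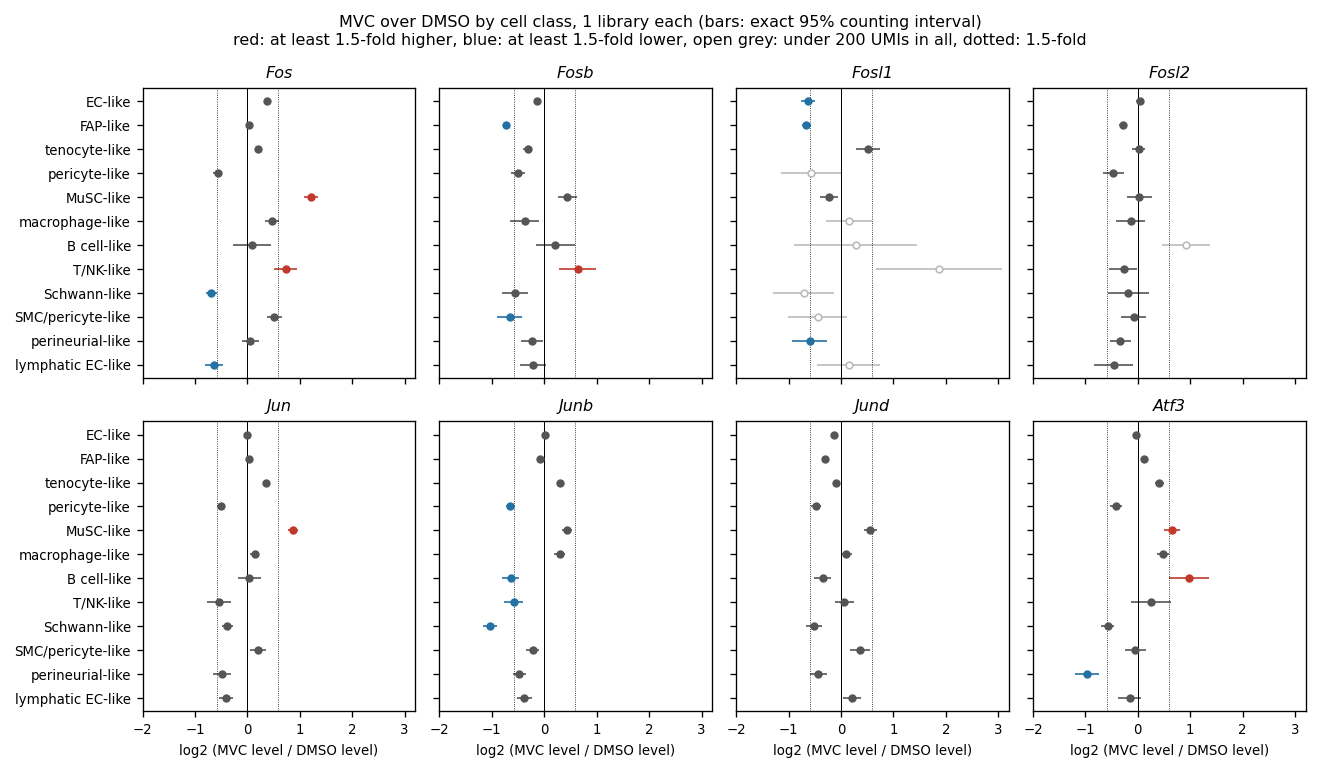
Log2 of the MVC over the DMSO level for each AP-1 gene in the 12 classes, with bars for the exact 95% counting interval, red and blue points at least 1.5-fold higher or lower, open grey points under 200 UMIs in all, and dotted lines at 1.5-fold. MuSC-like cells lie right of 0 for 7 of the 8 genes, and pericyte-like and Schwann-like cells lie left of 0 for every gene shown.

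MuSC-like cells, 144 in DMSO and 256 in MVC, were the class with the most AP-1 genes higher in MVC. Fos stood at 537 CPM (493 to 583) in DMSO and 1249 (1198 to 1301) in MVC, a log2 ratio of 1.22 (1.08 to 1.35). Jun stood at 1029 and 1880 CPM (log2 ratio 0.87) and Atf3 at 446 and 703 (0.66). The intervals of the libraries were apart for all 3. Jund (708 and 1039 CPM, 0.55), Fosb (361 and 491, 0.44) and Junb (1155 and 1559, 0.43) were also above 0 but not called, Fosl2 was level (231 and 236), and Fosl1 was the exception, at 489 and 417 CPM (-0.23). The call was met by 3 of 8 genes here against 11.2% of all genes in this class (152 of 2512 higher and 130 lower), and the members' median log2 ratio was 0.50 beside -0.06 for all genes.

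The Fos counts of MuSC-like cells were held by few cells. The 3 cells with the most Fos supplied 41.2% of its 553 UMIs in DMSO and 17.0% of its 2288 UMIs in MVC, and without the 3 highest cells of each library the log2 ratio was 1.71, an alternative chosen after seeing the data. After thinning, 23.7% of 139 DMSO cells (16.9 to 31.7) and 42.3% of 246 MVC cells (36.0 to 48.7) had a Fos UMI, and unthinned 51.4% and 61.3%, with median depths of 6758 and 6422 UMIs. The log2 ratio of Fos ran from 0.99 to 1.71 over 10 alternatives and passed 1.5-fold in 10 of them. Jun ran from 0.73 to 1.06 and passed in 10, and Atf3 from 0.57 to 0.78 and passed in 9. The 12 FAP markers summed to 419 CPM in MuSC-like cells of DMSO and 1438 in those of MVC, with Pdgfra, Lum, Smoc2 and Gdf10 at 0 in DMSO, while the 12 EC markers stood at 488 and 447 and the 12 MuSC markers at 4067 and 4293. The part of the FAP markers' difference in the AP-1 values was not tested.

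In FAP-like cells, 1172 in DMSO and 1420 in MVC, the Fos relatives separated from Fos. Fosb stood at 460.6 CPM (448.8 to 472.5) in DMSO and 278 (269 to 287) in MVC, a log2 ratio of -0.73, and Fosl1 at 195 and 123 CPM (-0.66), while Fos was at 1638 and 1682 (0.04). Jund (1540 and 1249 CPM, -0.30) and Fosl2 (302 and 247, -0.29) were lower without a call. Jun at 2073 and 2104, Junb at 2643 and 2493 and Atf3 at 781 and 847 differed little. With 2 of 8 genes called, both lower, beside 8.85% of all genes, the members' median was -0.19, and the median over all genes here was itself shifted to 0.12.

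The FAP-like class was mixed from 4 clusters in unlike proportions, cluster 4 holding 315 DMSO and 546 MVC cells. Fosb was lower in MVC in 4 of 4 clusters, from -0.47 in cluster 2 to -1.21 in cluster 4, and Jund was lower in 4 of 4. Fos was lower in 3 and higher in 1, since in cluster 10 it stood at 303 CPM in DMSO and 706 in MVC (1.22) and in cluster 4 at 2750 and 2146 (-0.36). The Fosl1 value depended on the mixture: with the clusters weighted alike in both libraries its log2 ratio was -0.35, no longer past 1.5-fold, whereas that of Fosb ran from -0.68 to -0.85 over 10 alternatives.

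EC-like cells, the largest class (2292 in DMSO and 2119 in MVC), had 1 of 8 genes called beside 8.2% of all genes. Fosl1 stood at 132 CPM (125 to 139) in DMSO and 85.3 (79.1 to 91.9) in MVC, a log2 ratio of -0.63, which was -0.38 with the 6 clusters weighted alike. Fos was at 1215 and 1564 CPM (0.36), higher in MVC in 5 of the 6 clusters, with cluster 3, at 2214 and 1962 CPM, as the exception. Jun (2225 and 2210 CPM), Junb (1690 and 1713), Atf3 (1374 and 1337) and Fosl2 (371 and 381) had log2 ratios between -0.04 and 0.04. Cluster 1 held 981 DMSO and 648 MVC cells, while cluster 3 held more cells in MVC than in DMSO, so the make-up of this class also differed.

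**Figure D3:**
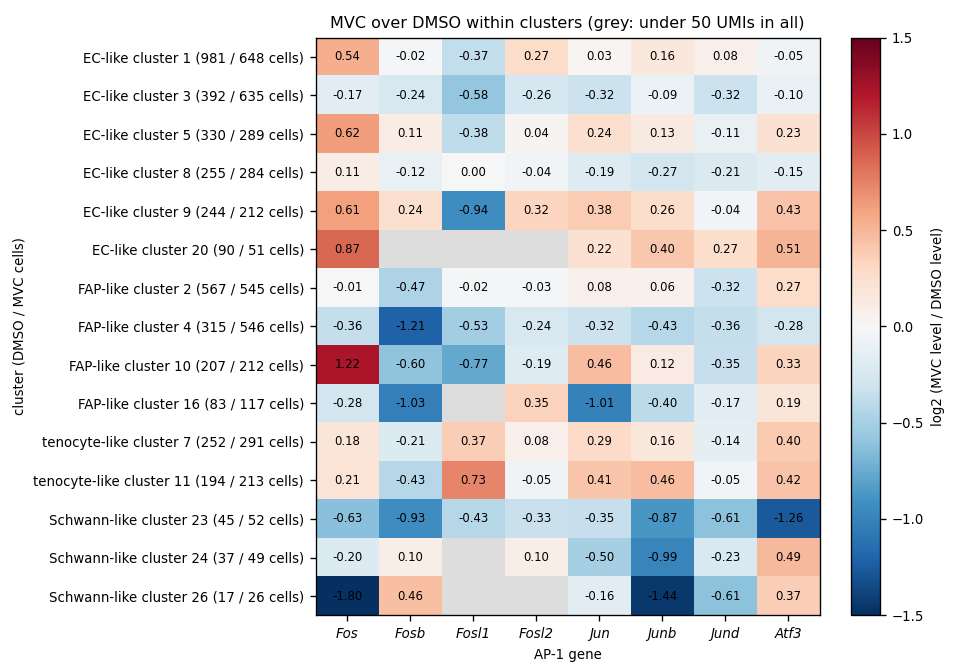
Log2 of the MVC over the DMSO level of each AP-1 gene in every cluster of the EC-like, FAP-like, tenocyte-like and Schwann-like classes, with the numbers of DMSO and MVC cells at the left and grey for pairs under 50 UMIs in all. Fosb is negative in all 4 FAP-like clusters, and Fos spans -0.36 to 1.22 among them.

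Tenocyte-like cells, 446 and 504, had 0 of 8 genes called beside 8.65% of all genes, and 6 of the 8 were above 0. Fosl1 had the highest ratio, at 67.2 and 96.1 CPM (0.51), higher in both clusters, opposite to its direction in EC-like and FAP-like cells, and past 1.5-fold in 2 of 10 alternatives. Atf3 stood at 494 and 657 CPM (0.41), Jun at 1487 and 1891 (0.35), Junb at 1473 and 1817 (0.30) and Fos at 1344 and 1538 (0.19). Both tenocyte-like clusters had each of these 4 higher in MVC, and Fosb lower.

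In pericyte-like cells 1 of 7 AP-1 genes was called, and the median log2 ratio of the 7 was -0.50 beside 0.03 for all genes, with 0 above 0. Junb, at 2048 CPM (1977 to 2120) in DMSO and 1305 (1241 to 1371) in MVC, a log2 ratio of -0.65, was that gene, beside 8.69% of all genes called. Fos was at 2072 and 1396 CPM (-0.57), Jun at 2759 and 1934 (-0.51), Fosb at 834 and 589 (-0.50), Jund at 1569 and 1130 (-0.47) and Atf3 at 1022 and 767 (-0.41), each with the intervals of the libraries apart. The count is sensitive to where the threshold lies, with 7 of the 7 past a looser log2 ratio of 0.32. The share of all genes past that looser ratio was not set beside it. This class had the highest share of called doublets of the 12, 10.8%, and median depths of 4121 and 2996 UMIs. Markers of other types differed too, the 6 erythroid markers standing at 4300 CPM in DMSO and 39.3 in MVC, the 12 EC markers at 6971 and 5830 and the 12 FAP markers at 2227 and 1543, while the 10 pericyte markers were at 15110 and 11560. The median mitochondrial share was 1.82% and 2.57%. The part of these in the AP-1 values was not tested. Without the doublets 2 genes were called, and with the stricter cell filter 0.

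In SMC/pericyte-like cells, 100 and 77, Fosb stood at 674 CPM (614.8 to 737.8) in DMSO and 426 (370 to 489) in MVC, a log2 ratio of -0.66, and was the 1 of 7 genes called, beside 11.1% of all genes. Fos pointed the other way, at 1204 and 1716 CPM (0.51). SMC-like cells were too few in MVC to be counted, and their Junb was at 2711 CPM in DMSO and 1281 in MVC (-1.08). Lymphatic EC-like cells, 75 and 78, had Fos at 1310 CPM (1223 to 1402) and 846 (768 to 929), a log2 ratio of -0.63 and the 1 of 7 genes called, beside 13.4% of all genes. Fosl2 and Jun were next, at -0.46 and -0.41.

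Schwann-like cells, 99 and 127 in 3 clusters, had the lowest members' median of the 12 classes, -0.56 beside 0.03 for all genes, with 0 of 7 genes above 0. Junb stood at 1967 CPM (1855 to 2083) in DMSO and 958 (886 to 1034) in MVC, a log2 ratio of -1.04, and it was lower in each of the 3 clusters, from -0.87 to -1.44. Fos stood at 2960 and 1838 CPM (-0.69) and was also lower in each cluster. The 2 calls of 7 stand beside 12.2% of all genes. Atf3, at 2105 and 1410 CPM (-0.58), was divided, being lower in cluster 23 at 3961 and 1651 CPM and higher in cluster 24 at 970 and 1359. The 3 highest cells supplied 30.7% of the Fos UMIs in DMSO and 20.2% in MVC. The 12 FAP markers stood at 3526 and 1841 CPM here, the 10 neutrophil markers at 13.6 and 573, the 12 EC markers at 133 and 519 and the 10 Schwann markers at 6689 and 7110, and the part of the first 3 lists in the AP-1 values was not tested.

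The extent of the perineurial-like class, 94 DMSO and 73 MVC cells, depended on the clustering. At cluster resolution 2 the name fell to 89 cells, 37 from DMSO and 52 from MVC, and an unnamed cluster of 80 cells with none of the markers raised, led by Cxcl5, Apod and Gpc3, held 58 from DMSO and 22 from MVC. Over the class the 8 perineurial markers stood at 2284 CPM in DMSO and 3687 in MVC, and the 12 FAP markers at 20540 and 16720. The part of these differences in the AP-1 values was not tested. The class had Atf3 at 777 CPM (718 to 838) and 397 (343 to 456), a log2 ratio of -0.97, and Fosl1 at 330 and 218 (-0.60), which made 2 of 8 genes called. This count is close to the 26.2% of all genes called in this class, the highest share of the 12. The Fosl1 log2 ratio ran from -1.05 with classes taken from each cell's own markers to -0.20 after thinning, and passed 1.5-fold in 6 of the 8 alternatives that kept 50 cells in each library.

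In the lymphocyte classes a few cells supplied much of several AP-1 counts, and in both, markers of other cell types differed between the libraries. Macrophage-like cells, 151 and 210, had 0 of 7 genes called beside 8.79% of all genes, with Atf3 at 545 and 761 CPM (0.48), Fos at 377 and 522 (0.47) and Junb at 705 and 864 (0.29). In B cell-like cells, 207 and 106, Junb was at 1021 CPM (965 to 1080) and 655 (596 to 719), a log2 ratio of -0.64, and Atf3 at 90.8 and 178 (0.97), so that 2 of 6 were called in opposite directions beside 13.2% of all genes. The 10 B cell markers stood at 4157 CPM in DMSO and 7487 in MVC and the 6 plasma cell markers at 2469 and 703, and their part in the AP-1 values was not tested. The Atf3 value rests on few cells, as the 3 highest held 60.6% of its 109 UMIs in DMSO and 69.1% of its 123 in MVC, and it ran from 0.62 without those cells to 2.83 without the called doublets.

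In T/NK-like cells, 195 and 61, Fos was at 287 CPM (262 to 313) and 474 (417 to 538), a log2 ratio of 0.73, Fosb at 125 and 195 (0.64) and Junb at 950 and 633 (-0.59), which made 3 of 7 called beside 20.6% of all genes. The 3 highest MVC cells held 58.0% of the Fos UMIs, and without the 3 highest cells of each library the log2 ratio of Fos was -0.08 and that of Fosb 0.08. The class was not of lymphocytes alone, as the 6 mast cell markers summed to 1585 CPM in DMSO and 2591 in MVC beside 2119 and 2042 for the 12 T/NK markers. In these cells the 12 EC markers summed to 727 CPM in DMSO and 2062 in MVC, and the 12 FAP markers to 521 and 2651, so RNA of other classes also differed between the libraries. The part of all 3 lists in the AP-1 values was not tested.

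Shares of cells with at least 1 UMI, after thinning to 2000, gave a second view that does not weigh cells by their counts. Of 96 pairs, 10 had intervals apart, 3 higher and 7 lower in MVC. The same share over all genes was not set beside this count, so it only describes the members. In FAP-like cells the share with Fosb was 38.1% (35.2 to 41.0) in DMSO and 26.6% (24.2 to 29.1) in MVC, and unthinned 64.6% and 49.15% at median depths of 10400 and 9254 UMIs. Fosl1 was found in 22.9% and 16.7% of FAP-like cells and in 18.6% and 12.5% of EC-like cells. Fos was found in 53.1% (50.9 to 55.3) and 59.0% (56.5 to 61.5) of EC-like cells. Fosl2 in B cell-like cells, under the minimum for a ratio, was found in 6.4% (3.45 to 10.7) and 25.0% (16.6 to 35.1). No class lacks all AP-1 transcripts, so a background share could not be read from one. The lowest thinned share of Fos among the 12 classes was 16.75%, in B cell-like cells of DMSO, and that of Fosl1 1.56%, in T/NK-like cells of DMSO.

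**Figure D4:**
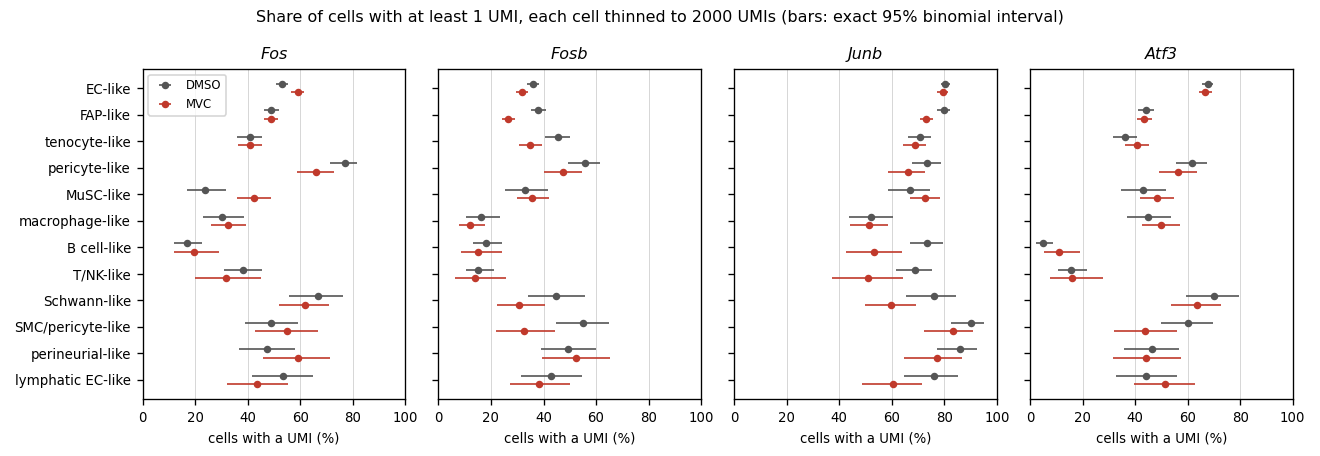
Share of cells with at least 1 UMI of Fos, Fosb, Junb and Atf3 after thinning each cell to 2000 UMIs, by class, with DMSO in grey, MVC in red and bars for the exact 95% binomial interval. The intervals of Fosb are apart in FAP-like cells, at 38.1% and 26.6%, and those of Fos in MuSC-like cells, at 23.7% and 42.3%.

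AP-1 genes are switched on together with other immediate early genes, and 29 of these were followed beside them. In Schwann-like cells 13 of 21 were called lower and 0 higher (median -0.61), in pericyte-like cells 7 of 23 lower and 0 higher (-0.49), and in perineurial-like cells 10 of 24 lower and 1 higher (-0.55). Over all genes 12.2%, 8.69% and 26.2% were called in these 3 classes. In MuSC-like cells 4 of 22 were called higher and 2 lower, beside 11.2% of all genes, with a median of 0.03. Among them Egr1, a zinc finger factor induced by the same kinases as Fos, stood at 1791 and 3292 CPM (0.88), Ccn1 at 139 and 314 (1.18) and Socs3, a brake on cytokine signalling, at 197 and 112 (-0.82). Over the 12 classes 18 pairs of this list were higher and 52 lower of 273, or 25.6% called, beside 10.5% of all gene and class pairs.

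Heat shock genes, which respond to warming and protein damage, had a median above 0 in 9 of the 12 classes, and the AP-1 genes in 5. The median over all genes was itself above 0 in every class but MuSC-like, SMC/pericyte-like and lymphatic EC-like cells. All 11 heat shock genes were above 0 in MuSC-like cells, and 5 were called higher (median 0.57). Among them Dnajb1, a chaperone, stood at 578 and 1463 CPM (1.34). Over all genes 11.2% were called in MuSC-like cells, with a median of -0.06. All 11 heat shock genes were also above 0 in FAP-like cells (median 0.34, beside 0.12 for all genes). The same held in tenocyte-like cells (0.21 beside 0.002). In Schwann-like cells their median was 0.25 while that of the AP-1 genes was -0.56. In pericyte-like cells both medians were negative, at -0.27 and -0.50. For all genes the median was 0.03 in both classes. Dissociation is known to induce both lists, and the part of cell isolation in the AP-1 values was not tested.

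**Figure D5:**
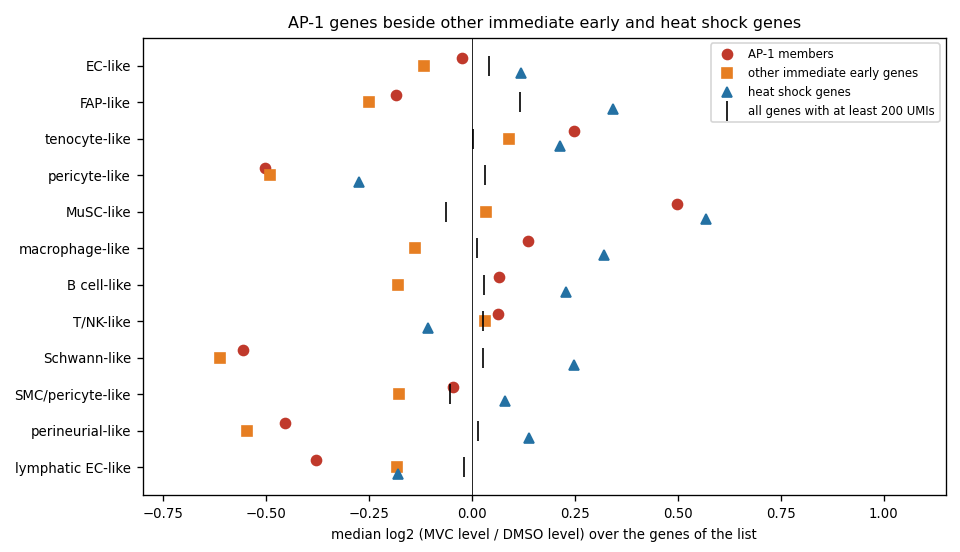
Median log2 of the MVC over the DMSO level in each class for the AP-1 genes (red circles), other immediate early genes (orange squares), heat shock genes (blue triangles) and all genes with at least 200 UMIs (black ticks). In MuSC-like cells AP-1 and heat shock genes lie at 0.50 and 0.57 and other immediate early genes at 0.03, and in Schwann-like cells AP-1 and other immediate early genes lie at -0.56 and -0.61.

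Few of the genes upstream of AP-1 were called, and the shares here are to be read beside the 10.5% of all gene and class pairs. Of the MAP kinases, their activators and the serum response factors that drive Fos transcription, 75 pairs with the 12 classes could be read, and 1 was called higher and 1 lower, or 2.67%. The higher pair was Srf in FAP-like cells, at 9.19 and 14.3 CPM (0.64), and the lower pair Mapk7 in EC-like cells, at 13.8 and 8.19 (-0.75). The MAP kinase phosphatases, which switch these kinases off, were called higher in 0 and lower in 6 of 40 pairs, or 15%. One of these was Dusp1 in pericyte-like cells, at 761 and 445 CPM (-0.77), while in MuSC-like cells Dusp1 was at 191 and 249 (0.38). Other bZIP genes whose products can pair with Fos or Jun proteins were called higher in 2 and lower in 4 of 52 pairs, or 11.5%. In macrophage-like cells Jdp2, a Jun dimerization partner, was at 226 and 142 CPM (-0.67), and in MuSC-like cells Maff was at 318 and 473 (0.57, not called).

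Genes known as AP-1 targets did not share a direction. Over the 12 classes 18 pairs were called higher and 24 lower of 91, or 46.2% beside 10.5% of all pairs. In MuSC-like cells, where 3 AP-1 genes were higher, 0 of 6 targets were called higher and 3 lower, namely Hmox1, the heme-degrading enzyme, at 2236 and 917 CPM (-1.29), Vegfa, an angiogenic growth factor, at 197 and 83.0 (-1.25), and Plaur, the urokinase receptor, at 140 and 86.2 (-0.70). Hmox1 was also lower in FAP-like cells, at 2374 and 1185 CPM (-1.003), in which Vegfa was at 152 and 92.3 (-0.72). In perineurial-like cells 6 of 6 were called lower, with a median of -1.27, beside 26.2% of all genes in this class, whose extent depended on the clustering. A further list holds secreted and receptor genes that the study followed as predicted JunB targets. This list could be read in 53 pairs, of which 8 were higher and 6 lower, or 26.4%. The study reported lower levels of its targets after JunB deletion, listing p-values for Il1r1, Plaur, Cxcl1, Pdgfb and Csf3 but not for Gdf15. It deleted or overexpressed JunB in satellite cells only, so values in other classes are no test of dependence on JunB. Gdf15, a stress cytokine of this list, was at 156 and 41.0 CPM in EC-like cells (-1.93) and at 23.2 and 8.31 in FAP-like cells (-1.48), where Junb had log2 ratios of 0.02 and -0.08. Cxcl1, a neutrophil-attracting chemokine on both lists, was at 2242 and 3019 CPM in MuSC-like cells (0.43) and at 4325 and 3745 in FAP-like cells (-0.21).

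Across the 26 points of class and library with at least 50 cells, the levels of the AP-1 genes followed each other to unlike degrees. Pearson's r of log2(CPM + 10) was 0.89 for Jun and Atf3, 0.87 for Fos and Jun, and 0.26 for both Fosl1 with Jund and Jun with Fosl2, the lowest of the 28 pairs, with a median of 0.61. The points share libraries and unequal depths, so these values are a description. Among 3903 genes outside the family, those most like Fos were Thra (0.95), Ccn1 (0.91), Dst (0.89), Gkap1 (0.88) and Cdc42bpa (0.87). Those most like Junb were Id3 (0.92), Tceal9 (0.86), Adamts1 (0.84), Lamb2 (0.83) and Tcf7l1 (0.82). For Jund they were Ccn1 (0.78), Egr1 (0.77), Cdkn1c (0.76), Mgp (0.76) and Col4a1 (0.76), and for Atf3 Dst (0.86), Dock1 (0.86), Lifr (0.84), Sash1 (0.83) and Vcl (0.83).

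From cell to cell within a class, Fos was correlated with Egr1, Jun and Junb. Over the 24 combinations of class and library, the median Spearman correlation across thinned cells was 0.52 for Fos with Egr1 (0.10 to 0.69), 0.43 for Fos with Jun (0.05 to 0.66), 0.41 for Fos with Junb (0.08 to 0.63) and 0.37 for Jun with Junb (-0.03 to 0.51). Jun was also correlated with the heat shock gene Hspa1a, at a median of 0.42 (-0.0013 to 0.59). Junb had a median of 0.12 with Cxcl1 (-0.08 to 0.37). Cells of a class share 1 library, so these values are a description.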

How the data were processed

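The 2 libraries (DMSO and MVC, 1 each) were measured by droplet single-cell RNA-seq. The authors deposited raw UMI counts per gene and barcode, made with Cell Ranger 7.0.0 on mm10 per the submitters' processing notes, which also name Seurat 5.0.1. Cells with fewer than 500 genes or over 10% mitochondrial UMIs were dropped, which removed 6.45% of DMSO and 9.81% of MVC barcodes. Counts were scaled to 10000 per cell, and 1998 variable genes, the 8 AP-1 genes left out, gave 30 principal components and a graph of 20 neighbours, clustered at Leiden resolution 1 with no integration (leidenalg 0.10.2, scikit-learn 1.9.0, numpy 2.4.6, scipy 1.17.1, pandas 2.3.3, Python 3.11.15). No cell annotation was used, so classes were rebuilt from marker lists, which can itself set these values apart from the study's. Doublets, 4.34% and 4.36% of cells, were called against simulated doublets at 0.8% per 1000 cells and kept. UMIs were summed per class and library. The 95% intervals are exact Poisson for levels, conditional for ratios and Clopper-Pearson for shares. The ratio step was tested on simulated data. No test between groups was possible with 1 library each.

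The AP-1 genes and all lists were chosen with earlier results of these data known. Genes named beside the 8 were the 5 most correlated with Fos, Junb, Jund and Atf3 among genes with a mean of at least 50 CPM, and, from each list, the 3 with the largest absolute log2 ratio in 6 classes; the Cxcl1 value in FAP-like cells, the cluster values beyond the highest and lowest summed level, and Egr1, Hspa1a and Cxcl1 as partners across cells lie outside this rule and were chosen after values were seen. Alternatives changed the fold, the UMI minimum, the scaling, the cell filter, doublets, the clustering, the class rule, the weighting of clusters and the depth.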

Additional observations from a re-analysis of the deposited data

Results flagged for a closer look

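For 3 AP-1 genes the MVC over DMSO ratio was past 1.5-fold in opposite directions in different classes. The share of all genes with such opposite calls was not set beside this count, so it only describes the members. The values below are from the classes where each gene had its highest and its lowest log2 ratio. In each case the difference between the classes was not tested, since each class had 1 library per group. Fos had a log2 ratio of 1.22 in MuSC-like and -0.69 in Schwann-like cells, 1.91 apart. Fosb had 0.64 in T/NK-like and -0.73 in FAP-like cells, 1.37 apart. Atf3 had 0.97 in B cell-like and -0.97 in perineurial-like cells, 1.94 apart. Without the 3 highest cells of each library, Fosb in T/NK-like cells was at 0.08. Atf3 in B cell-like cells ran from 0.62 to 2.83 over 10 alternatives. The extent of the perineurial-like class depended on the clustering.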

How the results depend on the processing

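No paired analysis was possible because there was 1 library per group, and for the same reason no library could be left out. The 18 AP-1 gene and class pairs past 1.5-fold became 49 at a looser log2 ratio of 0.32 and 2 at 2-fold, and 12 to 22 under the other alternatives; the cause was not tested unless the alternative itself sets the number. At the looser ratio the count was 2 in EC-like, 6 in MuSC-like, Schwann-like and perineurial-like, 3 in SMC/pericyte-like, macrophage-like and tenocyte-like, 4 in lymphatic EC-like and 7 in pericyte-like cells. At 2-fold it was 1 in MuSC-like and Schwann-like cells and 0 in B cell-like, EC-like, FAP-like, SMC/pericyte-like, T/NK-like, lymphatic EC-like, pericyte-like and perineurial-like cells. Classes from each cell's own markers gave 1 in B cell-like, 5 in perineurial-like and 1 in tenocyte-like cells. Weighting clusters alike gave 0 for EC-like cells and 1 for FAP-like cells, and clusters drawn with the AP-1 genes gave 1 in B cell-like cells. Without doublets it was 1 in B cell-like, 0 in EC-like, 4 in Schwann-like and 2 in SMC/pericyte-like, macrophage-like and pericyte-like cells. The mean of each cell's own CPM gave 1 in FAP-like and 4 in Schwann-like and pericyte-like cells, and scaling by the median ratio gave 2 in pericyte-like cells. A minimum of 1000 UMIs left 1 in B cell-like and T/NK-like and 0 in SMC/pericyte-like and perineurial-like cells. Perineurial-like cells gave no value at cluster resolution 2 or with clusters drawn with the AP-1 genes, since 37 DMSO cells remained, under the minimum of 50. The stricter cell filter left 0 in pericyte-like and 1 in perineurial-like cells. Thinning to 2000 UMIs gave 1 in B cell-like and perineurial-like, 5 in Schwann-like and 2 in pericyte-like cells. Shares of all genes at these settings, and at those of the next paragraph, were not set beside the counts, which only describe the members.

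In 2 alternatives chosen after seeing the data, a minimum of 30 cells gave 22 pairs, and leaving out the 3 highest cells of each gene, class and library also gave 22, with 6 in MuSC-like and 2 in pericyte-like cells. The latter turned the log2 ratio of Fos in T/NK-like cells from 0.727 to -0.083, the only one of the 18 to change sign. Depth limits Fosl1 most, with 7 of its 12 classes under 200 UMIs.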
